A study of Homo sapiens with 8 samples.

Results

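The coactivators YAP1 and WWTR1 (TAZ), the transcription factors TEAD1 to TEAD4 and the target genes CCN1, CCN2, ANKRD1 and AMOTL2 were followed in Alexander1, a human hepatocellular carcinoma line. The 10 genes were chosen by name, and all 10 were found among the 58206 gene identifiers of the count table. Of them, 9 passed the filter on low counts and were among the 14289 genes tested; ANKRD1 was too low. RNA-seq libraries were compared in 2 groups of 4: the parental line (genotype "wt (Axin1 -)") and a stable derivative labelled "Axin1 +". In the parental line the gene for Axin1, a scaffold of the complex that degrades beta-catenin, lacks the part that binds GSK3, and Wnt signalling is described as always on. The derivative carries the same deletion and adds full-length Axin1, which the series text places at a physiological level. It was made with a retroviral plasmid and clonal selection in hygromycin B, and the number of clones behind its 4 libraries is not given. The labels attach that protocol to the parental samples as well, so whether those cells carry an empty vector is not given. No label says that libraries of a group came from separate cultures, so p-values measure the spread between these libraries, which may be technical.

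YAP1 and TAZ do not bind DNA themselves and reach their targets through the TEAD proteins. In the Hippo pathway the kinases MST1 and MST2 activate LATS1 and LATS2, which phosphorylate YAP1 and TAZ and so hold them in the cytoplasm or mark them for breakdown. In the liver this pathway restrains organ size and tumour growth. Much of the control acts on the proteins, so the mRNA of target genes such as CCN1 and CCN2 is the usual transcriptional readout.

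The TEAD motif, searched as GGAATG on either strand (CATTCC on the other), is shown in the promoters of 3 targets as a possible TEAD site. Each line is the 250 bases before an annotated start (RefSeq, GRCh38.p14), 5′ to 3′ on the gene's own strand, which is the minus strand for all 3. Capitals mark the TEAD motif and, in ANKRD1, a match to the AP-1 motif TGANTCA that overlaps no TEAD motif.
CCN2, chr6:131951373-131951622: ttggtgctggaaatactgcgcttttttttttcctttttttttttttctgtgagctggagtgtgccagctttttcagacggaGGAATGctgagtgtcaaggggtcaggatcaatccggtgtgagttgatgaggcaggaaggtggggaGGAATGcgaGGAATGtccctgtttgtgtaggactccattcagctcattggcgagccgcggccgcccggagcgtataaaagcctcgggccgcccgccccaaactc
ANKRD1, chr10:90921088-90921337: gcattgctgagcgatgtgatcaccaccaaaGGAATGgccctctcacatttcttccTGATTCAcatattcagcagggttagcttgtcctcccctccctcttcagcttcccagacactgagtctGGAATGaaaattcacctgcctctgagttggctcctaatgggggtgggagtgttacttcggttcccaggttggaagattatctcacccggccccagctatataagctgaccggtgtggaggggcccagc
AMOTL2, chr3:134374448-134374697: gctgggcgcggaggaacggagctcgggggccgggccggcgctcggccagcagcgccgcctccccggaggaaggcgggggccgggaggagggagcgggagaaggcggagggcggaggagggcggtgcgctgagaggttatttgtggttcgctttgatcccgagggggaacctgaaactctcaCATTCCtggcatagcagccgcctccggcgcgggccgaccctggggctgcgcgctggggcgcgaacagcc
CCN2 held 3 TEAD motifs, with first bases at -169, -104 and -95 from the start. ANKRD1 held 2, at -220 and -128, and AMOTL2 held 1, at -69. Of all 35116 promoter windows of this length, 11.9% held at least 1 such motif, 0.940% at least 2 and 0.0826% at least 3. YAP1 also held 1, at -162, and the windows of WWTR1, TEAD2 and TEAD3 and a second window of AMOTL2 held none. No window was available for CCN1, TEAD1 and TEAD4, so their promoters were not searched for any of the motifs. The AP-1 motif stood in 6.57% of all windows. The CArG box of serum response factor stood in 1.16% of all windows and in none of the 10 windows that the table holds for 7 of the genes. A match describes letters and is not a measured binding site.

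The libraries held between 11232951 and 26400782 counts. AXIN1 stood at 55.3, 52.8, 47.4 and 54.2 CPM (counts scaled to a common library total, after the TMM method) in parental replicates 1 to 4 and at 47.6, 48.0, 48.2 and 37.7 CPM in the same replicates of the restored-labelled group (log2 fold change -0.21, edgeR adjusted p = 0.267). No rise in this count was seen in the group labelled as adding full-length Axin1. A count per gene does not separate the transferred from the deleted form. These counts thus do not show the full-length form, and directions below rest on the labels alone. Hepatocyte markers (8 genes, all tested) summed to between 23060 and 26996 CPM in the parental and between 17863 and 21312 CPM in the restored-labelled libraries. SERPINA1 alone held between 8943 and 17644 CPM of that sum. The 4 markers called went both ways, with FGB (2.05) and TTR (1.76) higher and SERPINA1 (-0.64) and TF (-0.94) lower (log2 fold changes). Fibroblast markers summed to at most 4.59 CPM and leukocyte markers to at most 0.712 CPM. Of the endothelial markers, CDH5 and KDR stayed at or below 0.248 CPM, and PECAM1 rose from between 4.47 and 6.50 CPM to between 33.8 and 58.3 CPM. Restored replicate 1 stood apart from its group: it was a high outlier (by Dixon's test) in 405 of the genes tested (2.83%), and albumin (ALB) was at 13.8 CPM there against 445 to 681 CPM in the other 3. Parental replicate 1 was a high outlier in 642 genes (4.49%).

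With all 8 libraries, none of the 9 tested genes passed the threshold (edgeR's quasi-likelihood test, adjusted p under 0.05 over all genes), where 19.2% of all genes tested did. The 9 log2 fold changes, restored-labelled over parental, were negative, from -1.17 in CCN1 to -0.05 in TEAD3, although total counts without TMM factors turned TEAD3 to 0.03. Their median was -0.28, against 0.00 over all genes tested. At an unadjusted p under 0.05 there were 2 genes, TEAD4 and CCN1, where 33.5% of all genes tested were. DESeq2's Wald test called 1 of the 9 (TEAD4), beside 24.6% of all genes, and limma-voom called 1 (CCN1), beside 19.8%. In each of the 9 genes the groups overlapped, where 23.9% of all genes did not overlap. In bulk RNA, fewer cells expressing a gene and less RNA per cell cannot be told apart.

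**Figure D1:**
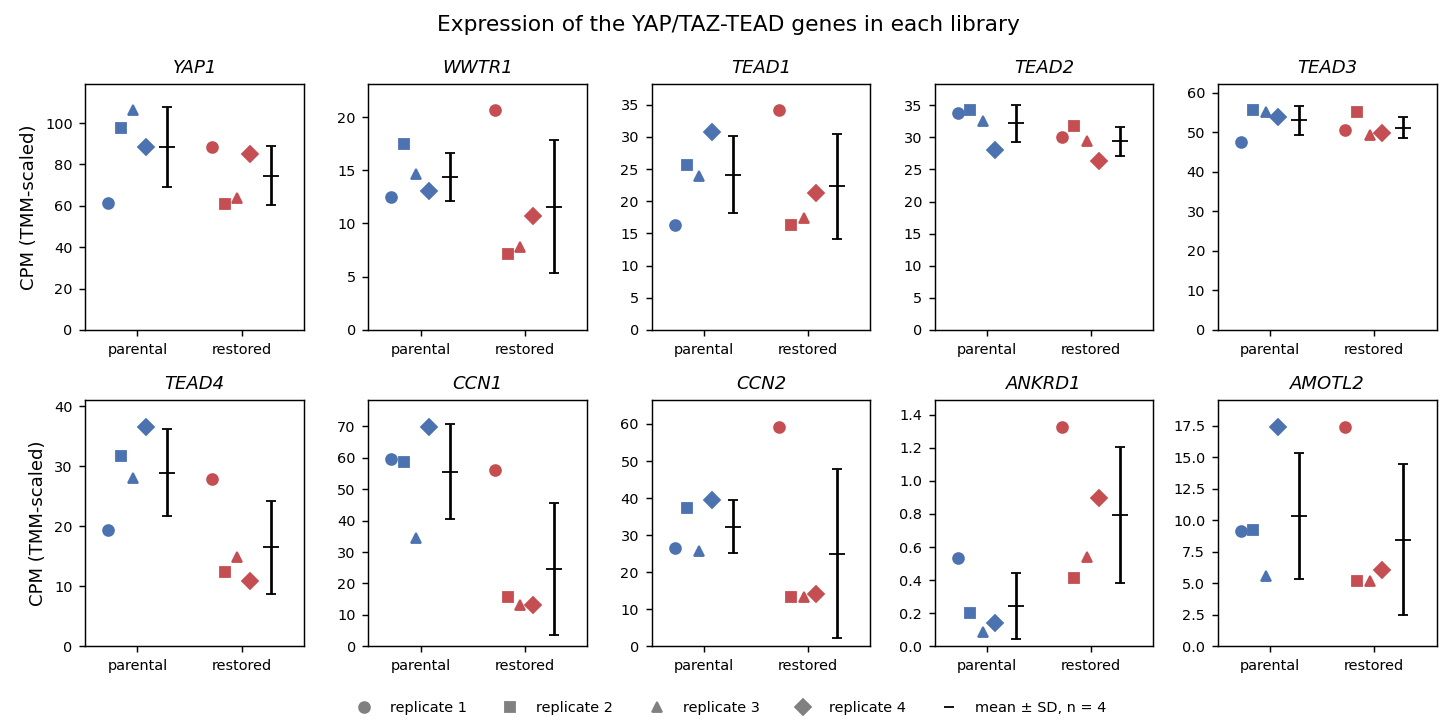
CPM of the 10 genes in each library (y axis from 0, scaled per panel), parental and restored-labelled, with the replicate number of each point and mean ± SD of 4 libraries. In CCN1, CCN2 and AMOTL2, restored replicate 1 lies at 56.0, 59.3 and 17.4 CPM and the other restored-labelled libraries at or below 15.9, 14.2 and 6.05 CPM.

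The coactivators did not pass the test. YAP1 (ENSG00000137693, chromosome 11, 102110461 to 102233423) held 61.2, 97.5, 106 and 88.3 CPM in the parental libraries, in the order of their replicate numbers, against 88.5, 60.9, 63.6 and 85.0 CPM in the restored-labelled ones. The ranges overlapped widely, and the lowest value of each group was nearly the same. The fitted log2 difference for YAP1 was -0.24 (SE 0.19, 95% confidence interval -0.66 to 0.17, edgeR adjusted p = 0.392). WWTR1 (ENSG00000018408, chromosome 3, 149517235 to 149736714), which encodes TAZ, was at 12.5, 17.5, 14.6 and 13.0 CPM in the parental and at 20.7, 7.10, 7.84 and 10.7 CPM in the restored-labelled libraries. Restored replicates 2 to 4 lay below every parental library, and restored replicate 1 lay above every one. WWTR1 had a log2 fold change of -0.30 (SE 0.31, 95% confidence interval -0.98 to 0.38, edgeR adjusted p = 0.525).

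Per kilobase of annotated exon, YAP1 mRNA was more abundant than WWTR1 mRNA in all 8 libraries. The ratio was between 6.57 and 9.72 in the parental libraries, 5.73 in restored replicate 1 and between 10.6 and 11.5 in restored replicates 2 to 4. The level of WWTR1 less that of YAP1 was -3.02 ± 0.26 in the parental and -3.22 ± 0.47 in the restored-labelled libraries (log2 CPM per kb, mean ± SD, n = 4 each), a shift smaller than either SD.

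Among the DNA-binding partners, TEAD2 and TEAD3 were steady, and TEAD1 and TEAD4 varied between libraries. TEAD3 (ENSG00000007866, chromosome 6, 35473597 to 35497076) was at 47.4, 55.6, 55.1 and 53.7 CPM in the parental and at 50.5, 55.1, 49.3 and 49.7 CPM in the restored-labelled libraries, with a log2 fold change of -0.05 (95% confidence interval -0.29 to 0.19). TEAD2 (ENSG00000074219, chromosome 19, 49340595 to 49362457) was at 33.8, 34.3, 32.5 and 28.1 CPM and at 30.1, 31.7, 29.4 and 26.3 CPM, a log2 fold change of -0.13 (95% confidence interval -0.41 to 0.15). For both genes the interval leaves out a change of 1.5-fold or more in either direction. TEAD1 (ENSG00000187079, chromosome 11, 12674591 to 12944483) was at 16.4, 25.6, 24.0 and 30.7 CPM and at 34.2, 16.3, 17.4 and 21.3 CPM, a log2 fold change of -0.11 (SE 0.26, 95% confidence interval -0.67 to 0.45, edgeR adjusted p = 0.793). Restored replicate 1 held the highest TEAD1 value of all 8 libraries. TEAD4 (ENSG00000197905, chromosome 12, 2959330 to 3040673) was at 19.4, 31.7, 28.2 and 36.6 CPM in the parental and at 27.9, 12.5, 14.9 and 10.9 CPM in the restored-labelled libraries. As in WWTR1, restored replicates 2 to 4 lay below every parental library, whereas restored replicate 1 lay within the parental range. TEAD4 had a log2 fold change of -0.80 (SE 0.30, 95% confidence interval -1.45 to -0.15), with an unadjusted p of 0.0199 and an edgeR adjusted p of 0.0816.

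TEAD3 made up the largest share of TEAD mRNA per kilobase of exon in each library. Its share was 40.3% ± 1.74 in the parental and 47.0% ± 5.44 in the restored-labelled libraries (mean ± SD, n = 4 each). The TEAD4 share was 29.1% ± 4.91 and 19.6% ± 6.56, that of TEAD2 25.2% ± 4.19 and 27.5% ± 2.57, and that of TEAD1 5.37% ± 0.886 and 5.93% ± 1.55. By library, TEAD4 took between 23.0 and 34.9% in the parental group, 29.1% in restored replicate 1 and between 15.01 and 19.1% in restored replicates 2 to 4. The 4 genes are paralogs, and how reads matching more than 1 of them were counted is not given in the sources used here.

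**Figure D2:**
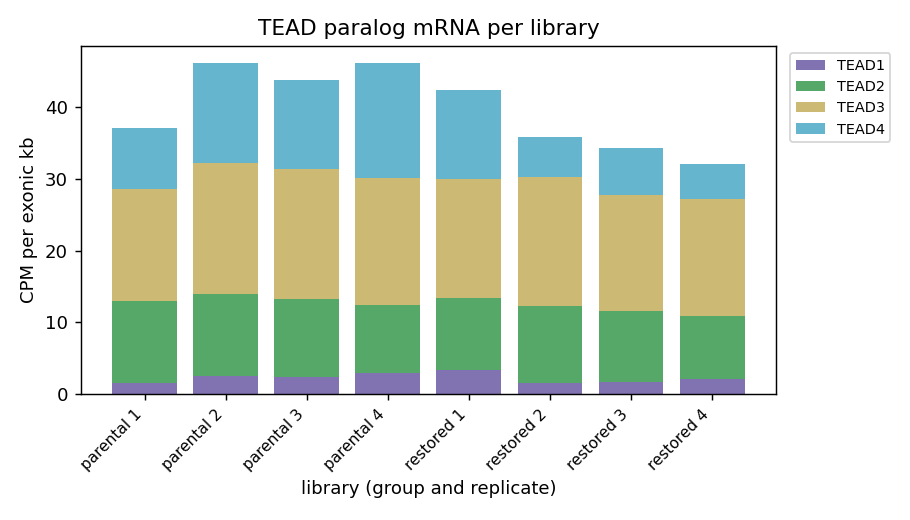
Levels of TEAD1 to TEAD4 in CPM per kilobase of annotated exon (y axis from 0), stacked for each of the 8 libraries. The TEAD4 segment is between 8.54 and 16.1 in the parental libraries, 12.3 in restored replicate 1 and between 4.81 and 6.55 in restored replicates 2 to 4, and the TEAD3 segment is between 15.6 and 18.2 in all 8.

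CCN1 and CCN2, long known as CYR61 and CTGF, encode secreted matricellular proteins and are the most used readouts of YAP1 and TAZ. CCN1 (ENSG00000142871, chromosome 1, 85580761 to 85583962) was at 59.5, 58.6, 34.3 and 69.8 CPM in the parental and at 56.0, 15.9, 13.3 and 13.0 CPM in the restored-labelled libraries. CCN2 (ENSG00000118523, chromosome 6, 131948176 to 131951373) was at 26.5, 37.3, 25.7 and 39.4 CPM and at 59.3, 13.2, 13.4 and 14.2 CPM. In both genes restored replicates 2 to 4 formed a narrow band below every parental library. Restored replicate 1 was at 3.98 times (CCN1) and 4.35 times (CCN2) the mean of that band, and in CCN2 it was the highest of all 8 libraries. With all libraries CCN1 had a log2 fold change of -1.17 (SE 0.45, 95% confidence interval -2.16 to -0.18), with an unadjusted p of 0.0241 and an edgeR adjusted p of 0.0924. That of CCN2 was -0.36 (SE 0.46, 95% confidence interval -1.36 to 0.65, edgeR adjusted p = 0.623).

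AMOTL2, an angiomotin-family protein that is a target and also binds YAP1, showed a like arrangement at a lower level. AMOTL2 (ENSG00000114019, chromosome 3, 134355874 to 134375479) was at 9.17, 9.21, 5.61 and 17.4 CPM in the parental and at 17.4, 5.20, 5.22 and 6.05 CPM in the restored-labelled libraries, a log2 fold change of -0.28 (SE 0.44, 95% confidence interval -1.24 to 0.69, edgeR adjusted p = 0.695). Restored replicate 4 lay above parental replicate 3, so the ranges met even without restored replicate 1. ANKRD1 (ENSG00000148677, chromosome 10, 90912096 to 90921276), a nuclear ankyrin-repeat protein gene, held 6, 3, 1 and 2 counts in the parental and 37, 5, 11 and 23 counts in the restored-labelled libraries. These were 0.242 CPM ± 0.200 and 0.795 CPM ± 0.410 (SD, n = 4 each), and the groups overlapped. In the fit without a filter on low counts the log2 fold change of ANKRD1 was 1.80 (SE 0.60, edgeR adjusted p = 0.0418), beside 6.11% of all genes called higher there. Dropping the filter changed the errors of other genes (SE 0.26 against 0.45 in CCN1, 0.17 against 0.13 in TEAD2). This p-value is therefore not comparable with those of the main fit. Restored replicate 1 was again the highest of all libraries, at 37 counts. The sign in ANKRD1 was opposite to that of the other targets, at counts too low for the main test.

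Among single libraries, leaving out restored replicate 1 changed the calls most. Without restored replicate 1, edgeR called 4 of the 9 tested genes lower (WWTR1, TEAD4, CCN1 and CCN2) and 0 higher, beside 11.0% of all genes in each direction in that fit. The log2 fold change became -1.99 in CCN1 (SE 0.23, edgeR adjusted p = 0.00039), -1.24 in CCN2 (SE 0.19, edgeR adjusted p = 0.00174), -1.19 in TEAD4 (SE 0.22, edgeR adjusted p = 0.00525) and -0.75 in WWTR1 (SE 0.21, edgeR adjusted p = 0.0285). In each of these 4 genes restored replicate 1 was the highest of its group, so leaving it out had to lower the restored-labelled mean. These p-values are therefore not independent support for a lower level. AMOTL2 was at -0.91 (edgeR adjusted p = 0.0787), YAP1 at -0.34, TEAD1 at -0.40, TEAD2 at -0.14 and TEAD3 at -0.05, and these 5 did not pass. Restored replicates 2 to 4 lay below all parental libraries in the same 4 genes, as they did in 16.4% of all genes tested. Without parental replicate 1, TEAD4 alone of the 9 was called (log2 fold change -0.95, edgeR adjusted p = 0.0268), beside 11.0% of all genes called lower in that fit, and leaving out any 1 of the other 6 libraries called none. Without both of these libraries, a choice made after seeing the data, 7 of the 9 were called lower and 0 higher, TEAD2 and TEAD3 being the exceptions, beside 15.7% of all genes called lower and 16.6% higher. The part of whatever sets restored replicate 1 apart was not tested.

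**Figure D3:**
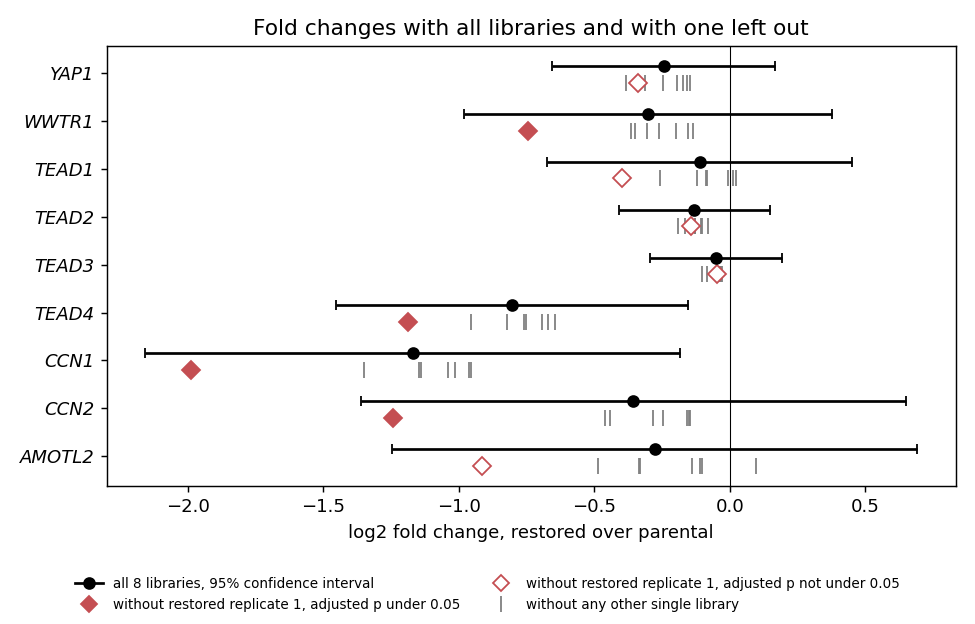
Log2 fold changes (x axis, restored-labelled over parental) of the 9 tested genes with all 8 libraries and their 95% confidence intervals, without restored replicate 1, and without each other library in turn. Without restored replicate 1, CCN1 moves from -1.17 to -1.99 and CCN2 from -0.36 to -1.24, while TEAD3 stays at -0.05.

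A wider readout was a signature of 22 target genes of YAP1 and TAZ, which holds the 4 targets above. Of these 16 were tested, and 14 had a negative log2 fold change, with a median of -0.31 against 0.00 over all genes. The filter on low counts left out ANKRD1, TGFB2, CCDC80 and FJX1. They held 12, 1, 2 and 9 counts in the parental and 76, 48, 31 and 37 in the restored-labelled libraries. FOXF2 and RBMS3, also left out, held 1 and 0 counts in all. With no filter, edgeR called 4 of 21 signature genes higher and 4 lower, beside 1846 and 1350 of 30224 genes. The negative direction thus describes the tested genes only. With all libraries 1 was called higher and 1 lower, where 10.4% and 8.77% of all genes were. ARHGEF17 rose from 1.54 CPM ± 0.378 to 8.81 CPM ± 3.39 (mean ± SD of 4 libraries per group; log2 fold change 2.53, SE 0.33, edgeR adjusted p = 0.00065), against the direction of most of the list. NUAK2, a kinase of the AMPK family, fell from 28.7 CPM ± 10.2 to 14.8 CPM ± 5.74 (log2 fold change -0.95, SE 0.29, edgeR adjusted p = 0.0402), a call lost in 7 of 18 alternatives, among them leaving out parental replicate 2 or 4 or restored replicate 2, 3 or 4. F3, which encodes tissue factor, was at 13.4, 25.6, 22.7 and 23.5 CPM in the parental and at 20.5, 6.77, 7.05 and 7.18 CPM in the restored-labelled libraries (log2 fold change -1.03, edgeR adjusted p = 0.0717). Its restored replicates 2 to 4 again formed a band below all parental libraries.

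Restored replicate 1 was the highest of the restored-labelled libraries in 13 of the 16 tested signature genes, and in 31.0% of all genes tested. It exceeded each of the other 3 more than 2-fold in 5 of the 16, and in 2.32% of all genes. Both counts include CCN1, CCN2 and AMOTL2, in which this library had already stood out, so they partly repeat the same values. Outside those genes the 2-fold excess was in F3 and LATS2. In the fit without restored replicate 1, edgeR called 4 signature genes lower (CCN1, CCN2, F3 and NUAK2) and 1 higher (ARHGEF17). In that fit 11.0% of all genes were called in each direction. CCN1 and CCN2 were among the calls already given above for the same fit. In F3 and NUAK2 too, restored replicate 1 was the highest of its group, so leaving it out had to lower the restored-labelled mean. The median log2 fold change of the signature was -0.53, against -0.004 over all genes there.

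**Figure D4:**
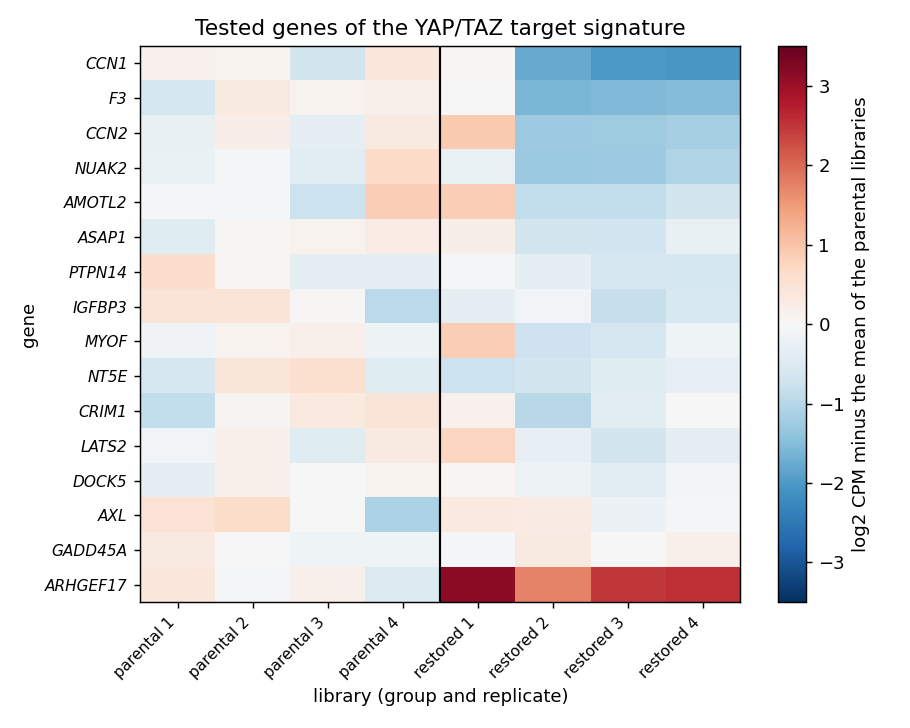
Log2 CPM of the 16 tested signature genes (rows) in the 8 libraries (columns), as the difference from the mean of the parental libraries, blue for lower and red for higher. CCN1, F3, CCN2 and NUAK2 are blue in restored replicates 2 to 4 and pale or light red in restored replicate 1, and ARHGEF17 is red in all 4 restored-labelled libraries.

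Of 31 genes for kinases and scaffolds upstream of YAP1 and TAZ, 30 were tested. The calls were 4 higher and 2 lower, shares near the 10.4% and 8.77% of all genes tested, and the median log2 fold change was 0.04. RASSF6, a protein that binds the MST kinases, rose from 2.01 CPM ± 0.485 to 6.70 CPM ± 0.367 (mean ± SD of 4 libraries per group; log2 fold change 1.74, SE 0.23, edgeR adjusted p = 0.00081). TAOK1, a kinase that activates MST1 and MST2, rose from 36.9 CPM ± 2.99 to 56.3 CPM ± 5.92 (log2 fold change 0.61, SE 0.12, edgeR adjusted p = 0.00773). RASSF1, another protein that binds the MST kinases, fell from 51.6 CPM ± 6.37 to 33.4 CPM ± 5.86 (log2 fold change -0.63, SE 0.16, edgeR adjusted p = 0.019), a call lost without parental replicate 2, restored replicate 3 or restored replicate 4. The other calls, named after their values were seen, were the MST scaffold SAV1 (0.50) and the LATS inhibitor LIMD1 (0.36), both higher, and the kinase MAP4K2 (-0.50), lower. The LIMD1 call was lost without restored replicate 1 (edgeR adjusted p = 0.0835). The core kinase genes, picked by role, did not pass: log2 fold changes were 0.26 in STK3 (MST2), 0.07 in STK4 (MST1), 0.54 in LATS1 and -0.05 in LATS2.

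Among 28 genes for proteins that bind or modify YAP1 and TAZ, 25 were tested, 2 were called higher and 0 lower (edgeR; 8 at an unadjusted p under 0.05, and 7 called by DESeq2). Of all genes tested, 10.4% were called higher, 8.77% lower, 33.5% had an unadjusted p under 0.05 and DESeq2 called 24.6%, so these counts were near or below the background. AMOTL1, an angiomotin-family gene like AMOTL2, held 1, 1, 2 and 3 counts in the parental and 36, 63, 116 and 171 counts in the restored-labelled libraries. It passed the filter on low counts through the restored-labelled libraries, where it is high, so its call is given no weight. AMOTL1 is nevertheless 1 of the 2 calls above and of the 8 at an unadjusted p under 0.05, and FBXW11 is the only other call. The ratio of summed counts over scaled totals was 32.9, given as a description only. It leaves out the spread between libraries, from 1.29 to 6.68 CPM in the restored-labelled group. Restored replicate 1, at 1.29 CPM, was the lowest of its group. FBXW11, a substrate receptor of the ubiquitin ligase that marks YAP1 and TAZ for breakdown, rose from 26.2 CPM ± 4.42 to 45.6 CPM ± 8.43 (mean ± SD of 4 libraries per group; log2 fold change 0.80, SE 0.18, edgeR adjusted p = 0.0116). YES1, the kinase after which YAP1 is named, was at 49.5 CPM ± 14.9 and 79.1 CPM ± 14.4 and did not pass (log2 fold change 0.68, edgeR adjusted p = 0.0532).

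CCN1 and CCN2 also respond to serum response factor and to AP-1, so genes of those programmes were set beside them. Of 24 genes tied to serum response factor and its MRTF coactivators 21 were tested, with 6 called higher and 3 lower, beside 10.4% and 8.77% of all genes tested, and a median log2 fold change of -0.05. The contractile and cytoskeletal genes FHL1, TPM1 and MYL9 rose, with log2 fold changes of 2.58, 1.38 and 1.97 (edgeR adjusted p = 8.8e-05, 0.00042 and 0.00057). The 3 that fell, named after their values were seen, were FILIP1L (-1.91), the beta-actin gene ACTB (-0.83) and the focal adhesion gene ZYX (-0.61). Of 24 immediate-early genes 22 were tested, with 0 called higher and 4 lower, beside the same 10.4% and 8.77%, and a median of -0.18. FOSL1, an AP-1 subunit, was at 85.5, 89.1, 48.1 and 54.7 CPM in the parental and at 34.5, 12.4, 4.53 and 5.46 CPM in the restored-labelled libraries, and the groups did not overlap (log2 fold change -2.28, SE 0.55, edgeR adjusted p = 0.0173). Here too restored replicate 1 was the highest of its group, but it lay below every parental library. The FOSL1 call was lost without restored replicate 4 (edgeR adjusted p = 0.0508). IER3 (-0.79, edgeR adjusted p = 0.0121) and KLF6 (-0.68, edgeR adjusted p = 0.0328) fell as well, as did JUN (-0.73, edgeR adjusted p = 0.0358), named after its values were seen. KLF6 lost its call in 6 of 18 alternatives, including the fit without restored replicate 1 (edgeR adjusted p = 0.06). The JUN call was lost in that fit too (edgeR adjusted p = 0.0507).

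Levels of the 10 genes were compared per kilobase of exon. In the parental libraries the order of mean levels, in CPM per kb ± SD with n = 4, was CCN1 (22.6 ± 6.13), TEAD3 (17.4 ± 1.23), YAP1 (14.0 ± 3.10), CCN2 (13.8 ± 3.06), TEAD4 (12.8 ± 3.20), TEAD2 (10.8 ± 0.952), TEAD1 (2.35 ± 0.577), AMOTL2 (1.73 ± 0.834), WWTR1 (1.71 ± 0.267) and ANKRD1 (0.122 ± 0.101). Neighbours in that order overlapped in range except TEAD2 over TEAD1 and WWTR1 over ANKRD1. In the restored-labelled libraries TEAD3 came first at 16.8 ± 0.874 CPM per kb, above the whole range of YAP1 (11.8 ± 2.27), and CCN2 (10.7 ± 9.77) and CCN1 (10.0 ± 8.56) followed with wide spreads. Lengths cover all annotated exons, so a gene with long, rarely used exons appears lower than it is.

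The genes whose pattern over the 8 libraries was most like that of YAP1, CCN1 and CCN2 were found by the root mean square difference of centred log2 CPM among 13503 genes. For YAP1 these were KPNA4 (0.0470), PFN2 (0.0731) and PPP2CB (0.0751). For CCN1 they were ZNF880 (0.256), N4BP3 (0.273) and SLC17A1 (0.277). For CCN2 they were NEB (0.150), ARHGAP40 (0.266) and FSCN1 (0.266), the gene of the actin-bundling protein fascin. NEB, the gene of the muscle protein nebulin, was at 19.8, 31.2, 21.1 and 28.6 CPM in the parental and at 35.1, 9.74, 8.87 and 10.5 CPM in the restored-labelled libraries. As in CCN2, restored replicate 1 was the highest of all 8 libraries and restored replicates 2 to 4 lay below every parental one. None of these 9 genes passed the threshold with all libraries (edgeR), where 19.2% of all genes tested did. An unadjusted p under 0.05 was found in 2 of them, and in 33.5% of all genes tested. DESeq2 and limma-voom each called 1, ZNF880, beside 24.6% and 19.8% of all genes. The 9 were chosen for their likeness in these same libraries, so their values, those of NEB included, follow from the choice.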

How the data were processed

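RNA was sequenced from 4 parental and 4 restored-labelled libraries of Alexander1, grouped by the genotype in the labels. The deposited table holds whole-number counts per gene with no normalization, as its values show. Per the submitters' processing notes, bcl2fastq, fastp 0.23.1, STAR 2.7.4 and GRCh38 were used; the counting program, annotation and use of strand are not given in the sources used here. Annotated genes that overlap exons of the 10 genes held at most 45 counts over all libraries.

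Counts were tested in R 4.3.3 with edgeR 4.0.16 (filterByExpr with a minimum count of 10 and a minimum total of 15, TMM scaling, glmQLFit and glmQLFTest without covariates, two-sided). P-values were adjusted by the Benjamini-Hochberg method over 14289 genes, with a threshold of 0.05. Standard errors were derived from each log2 fold change and its F statistic (size divided by the root of F). CPM use TMM-scaled totals, log2 CPM a prior count of 2, and coordinates and exon lengths GENCODE 29 (GRCh38), in which 57943 of 58206 identifiers were found; 57495 had a symbol. At the library totals, 3 counts equal between 0.108 and 0.267 CPM. Alternatives included DESeq2 1.42.0 and limma-voom (limma 3.58.1). On simulated data the test called 13.4% of the genes changed 1.5-fold, 58.8% of those changed 2-fold and 96.8% of those changed 4-fold. Of its 110 calls there, 0.909% were false. The simulation held no library set apart as restored replicate 1 is.

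The 10 genes and the 6 other gene lists were chosen with earlier results of these data known. The text names the 10 genes, the 3 genes of each list with the smallest p-value that are not among them, AXIN1, and the 3 genes nearest in pattern to YAP1, CCN1 and CCN2; others are said to be chosen after their values were seen or by role. The 6 lists were upstream Hippo genes, proteins that bind or modify YAP1 and TAZ, the target signature, genes of serum response factor, immediate-early genes and the CCN family, of which only CCN1 and CCN2 could be tested.

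Replicate numbers did not pair the libraries: deviations of same-numbered libraries from their group means correlated at -0.06, 0.01, -0.03 and 0.23.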

Additional observations from a re-analysis of the deposited data

Results flagged for a closer look

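Among 70 groups of 4 values examined for a library far from the others, 11 were picked out. Chance picks about 1 in 20, but the background in these data was higher. Over all genes tested, parental replicate 1 was picked out as high in 4.49% and as low in 1.87%. Restored replicate 1 was picked out as high in 2.83% and as low in 0.707%. In 10 of the 11, restored replicate 1 was high among the restored-labelled libraries. Of the targets, CCN1 stood at 55.99 CPM, CCN2 at 59.29 CPM and AMOTL2 at 17.43 CPM in that library. Of the other signature genes, NUAK2 stood at 23.35 CPM and F3 at 20.48 CPM. Of the genes nearest in pattern to CCN1 and CCN2, which were chosen for their likeness, ZNF880 stood at 2.583 CPM, SLC17A1 at 5.13 CPM, NEB at 35.12 CPM, ARHGAP40 at 7.102 CPM and FSCN1 at 9.793 CPM. AXIN1 was low in restored replicate 4, at 37.71 CPM.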

How the results depend on the processing

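Of the 10 genes, reversals of direction came in TEAD1 (0.024 without parental replicate 4 and 0.01 without restored replicate 2), TEAD3 (0.026 with total counts only) and AMOTL2 (0.10 without parental replicate 4), all small values on the log2 scale. The number of the 10 genes called was 3 with no filter on low counts (TEAD4, CCN1 and ANKRD1), 1 with DESeq2, 1 with limma-voom, 1 with the replicate block (CCN1, beside 14.2% of all genes), and 7 without parental replicate 1 and restored replicate 1, where TEAD1 stood at -0.54 and AMOTL2 at -0.97; with 1 library left out it was between 0 and 4. The number of all genes called, 2738 in the report (19.2%), was 964 at an adjusted p under 0.01 (6.75%) and 4623 without both libraries (32.3%). It was 2033 with the replicate block (14.2%) and between 1394 (9.71%) and 3523 (24.1%) with 1 library left out. The share of all genes called was 10.6% with no filter, 18.1% with total counts only, 24.6% with DESeq2 and 19.8% with limma-voom. The counts per list below are to be read beside these shares. Genes called over all lists numbered 10 at 0.01, 46 without both libraries and between 14 and 29 with 1 left out. By list, the upstream Hippo genes gave 3 with no filter, 3 with the replicate block, 2 at 0.01, 9 without both libraries and between 2 and 6 with 1 library left out. The binding proteins gave 5 with no filter, 7 with DESeq2, 1 at 0.01, 8 without both libraries and between 2 and 5 with 1 left out. Each of these counts includes AMOTL1, whose call is given no weight. The signature gave 8 with no filter (4 higher and 4 lower). It gave 1 with total counts only, 4 with limma-voom, 1 at 0.01, 10 without both libraries and between 1 and 5 with 1 left out. The immediate-early genes gave 0 at 0.01, 7 without both libraries and between 1 and 4 with 1 left out, and the CCN family gave 1 with no filter, 1 with limma-voom, 1 with the replicate block, 2 without both libraries and between 0 and 2 with 1 left out. The cause of these shifts was not tested. The genes of ANKRD1's level are limited by depth, at 1 to 37 counts a library.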

Other observations

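Genes of the lists that were too low for the test are given here as counts. CCN3, CCN4 and CCN6 held 1 count each over all 8 libraries and CCN5 held 9, of which 8 were in restored replicate 4, so CCN1 and CCN2 were the CCN family members with appreciable reads. The TEAD cofactors VGLL1, VGLL2 and VGLL3 held 0, 1 and 1 counts in all. Of the signature genes, TGFB2, which encodes a TGF-beta ligand, held 0, 0, 1 and 0 counts in the parental and 3, 7, 13 and 25 counts in the restored-labelled libraries, and CCDC80 held 1, 1, 0 and 0 and then 17, 6, 6 and 2 counts. FJX1 held 9 counts in the parental and 37 in the restored-labelled libraries, and FOXF2 and RBMS3 held 1 and 0 counts in all.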
